A study of Mus musculus with 30 samples.

Results

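The 38 genes described here encode the extracellular matrix and the contractile apparatus of stromal cells, the fibroblasts, mesothelial cells and smooth muscle cells that support other tissue. They form a given list of symbols, and each was found by its symbol in both deposited count tables, 38 of 24063 genes in macrophages and 38 of 24453 in hepatocytes. Polyadenylated RNA had been sequenced from primary mouse macrophages elicited with thioglycollate (RPMI medium with 10% serum, 3 libraries a group) and from primary mouse hepatocytes (Hepatozyme medium with 10% serum, 2 libraries a group). Sterol synthesis was held down in every group, vehicle included: the cells spent 24 h with mevastatin (10 uM), which blocks it, with mevalonate (50 uM) and with serum (10%) depleted of lipid, and then 18 to 20 h with their ligand. The groups were vehicle (DMSO or ethanol), desmosterol at 10 uM, a cholesterol precursor and natural agonist of LXR, the liver X receptors, the synthetic sterol amides DMHCA and MePipHCA at 1 uM, and the non-sterol LXR agonists GW3965 and T0901317 at 1 uM. DMHCA and MePipHCA differ in the amide group, a dimethylamide in the former and a methylpiperidine amide in the latter. Strain, sex and age are not given in the sources used here. Nothing in the labels ties replicates to animals or cultures of their own, and the p-values here reflect spread between libraries that may be technical only. Cell type cannot be told apart from medium and from the date in the sample titles.

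Fibrillar collagens (types I, III and V) form the fibres of connective tissue, type IV collagens the sheet beneath epithelia and around vessels, and type VI collagens a beaded network between cells. Small leucine-rich proteoglycans such as decorin coat the fibres, and lysyl oxidases crosslink them. The contractile genes encode smooth muscle actin, the calponins, caldesmon and tropomyosins that regulate actin filaments, and vinculin, which ties the filaments to adhesion sites. Many contractile genes are targets of serum response factor (SRF), which binds a DNA element called the CArG box, whereas Ctgf and Cyr61, secreted proteins of the CCN family, are targets of YAP and the TEAD factors. Macrophages use vinculin, calponin 2 and tropomyosin 1 for their own movement, but type I collagen and smooth muscle actin are products of stromal cells, which also live in the peritoneum. In bulk RNA, fewer cells of a type and less RNA per cell cannot be told apart.

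RefSeq promoters (build GRCm38.p6) were matched for 26 of the 38 genes. The 250 bases before the start site are printed for 5 genes that span the response to MePipHCA described below: Acta2 (smooth muscle actin), Vcl (vinculin) and Cnn2 (calponin 2) of the contractile group, Cyr61 of the CCN group, and Col3a1 of the fibrillar collagens. Capitals mark CArG boxes, CArG boxes with 1 G or C inside, GGAATG on either strand (the TEAD motif) and TATAAA on the sense strand.
Acta2, chr19:34255374-34255623, minus strand: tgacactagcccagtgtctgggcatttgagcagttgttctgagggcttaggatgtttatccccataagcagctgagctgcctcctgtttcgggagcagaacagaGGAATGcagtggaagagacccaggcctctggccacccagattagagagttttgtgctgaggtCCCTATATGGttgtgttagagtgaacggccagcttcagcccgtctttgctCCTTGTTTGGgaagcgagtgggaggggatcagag
Vcl, chr14:20929148-20929397, plus strand: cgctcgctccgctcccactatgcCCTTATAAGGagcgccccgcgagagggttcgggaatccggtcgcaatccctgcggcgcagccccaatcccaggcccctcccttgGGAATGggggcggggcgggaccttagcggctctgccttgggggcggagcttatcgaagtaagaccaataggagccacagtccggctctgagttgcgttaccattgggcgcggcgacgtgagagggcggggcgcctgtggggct
Cnn2, chr10:79988350-79988599, plus strand: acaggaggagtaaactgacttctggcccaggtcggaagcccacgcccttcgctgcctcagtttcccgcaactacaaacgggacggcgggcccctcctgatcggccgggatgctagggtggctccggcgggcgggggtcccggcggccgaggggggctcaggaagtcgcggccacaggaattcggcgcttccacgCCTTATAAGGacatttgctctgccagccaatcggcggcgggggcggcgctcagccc
Cyr61, chr3:145649986-145650235, minus strand: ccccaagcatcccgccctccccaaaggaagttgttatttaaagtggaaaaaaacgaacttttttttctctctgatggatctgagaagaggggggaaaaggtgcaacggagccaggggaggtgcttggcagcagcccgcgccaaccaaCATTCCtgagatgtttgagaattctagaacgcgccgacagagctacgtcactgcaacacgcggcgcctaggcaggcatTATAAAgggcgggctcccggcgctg
Col3a1, chr1:45311288-45311537, plus strand: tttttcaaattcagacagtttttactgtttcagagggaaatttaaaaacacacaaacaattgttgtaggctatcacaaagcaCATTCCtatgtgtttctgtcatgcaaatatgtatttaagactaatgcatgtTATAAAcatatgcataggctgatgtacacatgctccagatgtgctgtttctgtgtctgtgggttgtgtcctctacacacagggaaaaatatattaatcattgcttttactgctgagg

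Col6a2, Postn and Cald1 had 2 promoters each, so 29 windows were searched. A CArG box was found in 3 of the 29, those of Cnn2, Myl9 and Vcl, while 1.47% of 32851 mouse promoter windows of that length held one. All 3 are contractile genes. The looser form, with 1 G or C inside, was found in Acta2, Col1a2, Col6a3, Myl9 and Timp3, 5 of 29 windows, against 7.24% of all windows. GGAATG or its reverse complement was present in 8 of 29 windows, 1 each of 8 genes (Acta2, Cald1, Col3a1, Col6a2, Cyr61, Lmod1, Tpm1 and Vcl), against 12.6% of all windows. TATAAA on the sense strand was present in Cald1, Col3a1, Cyr61 and Postn, 4 of 29 windows, against 7.59%. In the printed windows the looser CArG form began 84 and 34 bases before the start of Acta2, and the exact box 227 bases before that of Vcl and 56 before that of Cnn2. These matches describe the letters of each window only, and binding was not tested. Col4a1 and Col4a2 start 21 bases apart on opposite strands of chromosome 8.

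Levels per length (RPKM as deposited, reads scaled by transcript length and library size) put fibronectin first in vehicle macrophages. Fn1 stood at 112 ± 24 RPKM (SD, n = 3), Tpm1 at 44.5 ± 0.798, Cnn2 at 41.0 ± 0.464, the collagen-binding glycoprotein gene Sparc at 37.1 ± 6.6 and Vcl at 26.9 ± 0.114. The libraries of Fn1 lay above all others, those of Tpm1 above those of Cnn2, Sparc overlapped both, and Vcl lay below them. Col1a2 (19.8 ± 3.03), Dcn (17.4 ± 0.84) and the proteoglycan biglycan, Bgn (15.5 ± 3.82), came next and overlapped one another. Acta2 stood at 6.44 ± 1.67 RPKM, Des (desmin, the intermediate filament of muscle) at 5.45 ± 1.22 and Tagln (transgelin, an actin-binding protein of smooth muscle) at 5.29 ± 1.01, with overlapping ranges. At the bottom were Pdgfrb, a growth factor receptor of pericytes, at 0.0857 ± 0.0138 RPKM, and Actg2 and Lmod1 of mature smooth muscle at 0.0327 ± 0.0294 and 0.0133 ± 0.0116. Cnn1, the calponin of smooth muscle, had 0 reads in the 3 vehicle libraries.

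Hepatocytes had another order. Fn1 stood at 471 ± 3.94 RPKM (SD, n = 2), Cyr61 at 431 ± 35.6 and Ctgf at 350.0 ± 0.649. The CCN genes thus ranked just below fibronectin in hepatocytes, while in macrophages Cyr61 stood at 2.68 ± 0.519 and Ctgf at 1.63 ± 0.156 RPKM. Tpm1 (311 ± 12.9), the caldesmon gene Cald1 (232 ± 6.38) and the lysyl oxidase gene Lox (33.3 ± 0.468) were also among the higher genes, as were Col4a1 (22.3 ± 1.85) and Col4a2 (16.1 ± 0.365). Col1a1 stood at 0.016 ± 0.0226 RPKM in hepatocytes and at 10.6 ± 1.25 in macrophages. Col1a2, Col3a1, Col5a1, Col6a1, Col6a3, Lum, Loxl1, Acta2, Actg2 and Myl9 had 0 reads in both vehicle hepatocyte libraries, which together hold 19.5 M counts, so up to 3 counts in that total are allowed. The 2 tables were normalized separately and levels were not tested between them.

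**Figure D1:**
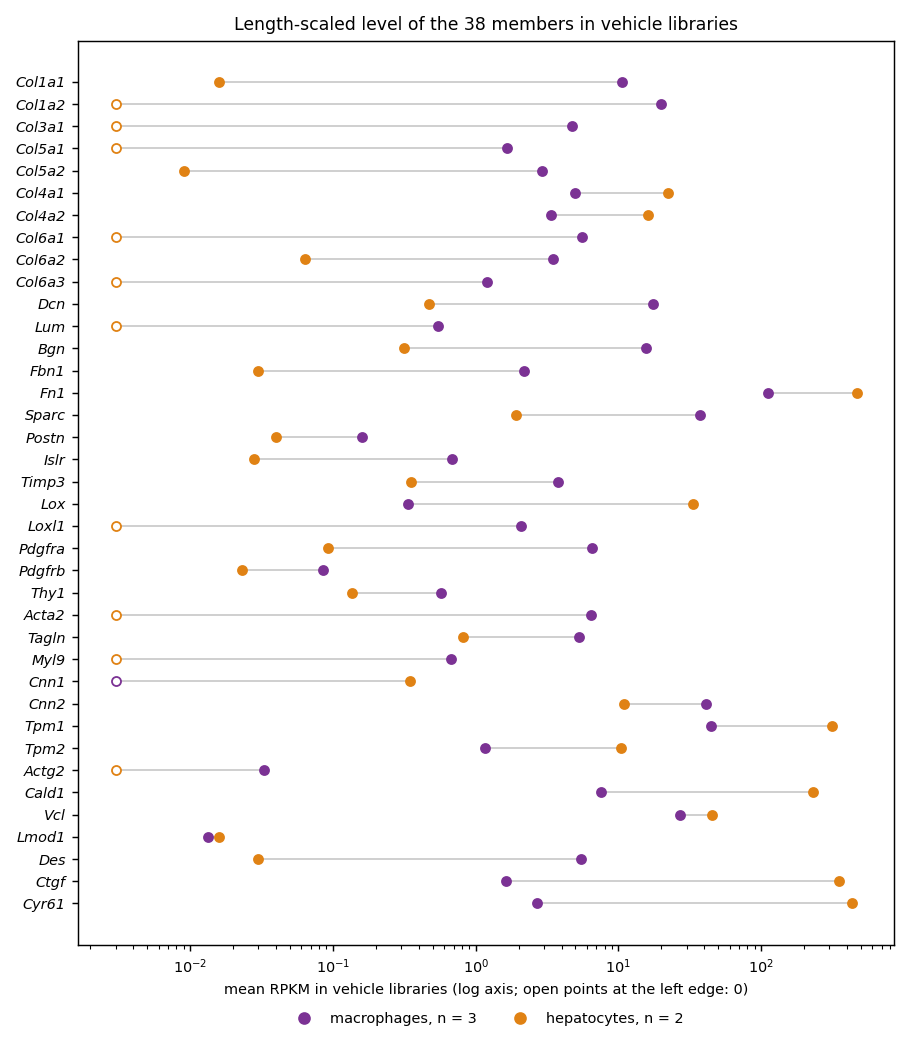
Mean level of each of the 38 genes in vehicle libraries, in RPKM on a log axis, for macrophages (purple, n = 3) and hepatocytes (orange, n = 2), with open points for genes at 0. Acta2 and most fibrillar collagens have filled points in macrophages only, and Ctgf, Cyr61, Cald1 and Lox lie higher in hepatocytes.

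Counts over exons totalled 3.86 to 15.69 M in the macrophage libraries and 6.63 to 18.63 M in the hepatocyte libraries, and the DMHCA (3.86 to 7.69 M) and MePipHCA macrophages (4.24 to 6.8 M) were shallower than vehicle (10.55 to 15.69 M). Markers of macrophages summed to 16466 to 16551 CPM (counts scaled to library size) in vehicle macrophages and those of hepatocytes to 32903 to 38650.0 in vehicle hepatocytes, as labelled. Counts of each replicate pair differed by more than sampling noise. The filter on low counts was passed by 30 of the 38 genes in macrophages, all but Lum, Postn, Pdgfrb, Thy1, Myl9, Cnn1, Actg2 and Lmod1. In hepatocytes 16 passed: Col4a1, Col4a2, Bgn, Fn1, Sparc, Timp3, Lox, Pdgfra, Tagln, Cnn2, Tpm1, Tpm2, Cald1, Vcl, Ctgf and Cyr61. Below, changes are log2 fold changes ± SE over vehicle, levels are CPM of scaled libraries, and a gene is said to rise or fall where edgeR's quasi-likelihood test gave a Benjamini-Hochberg adjusted p under 0.05 over all genes tested.

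MePipHCA lowered nearly the whole list in macrophages. Of the 30 genes tested 29 fell and 0 rose, where 35.4% of all genes tested were called and 18.3% fell. The members' median change was -1.58, against 0.0 for all genes. Every MePipHCA library lay below every vehicle library for these 29 genes, and 24.2% of all genes were lower in that way. DMHCA, at the same dose, lowered 20 of 30 and raised 0, with a median of -0.60, where 11.7% of all genes were called and 5.9% fell. The ligand comparisons share the vehicle libraries.

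**Figure D2:**
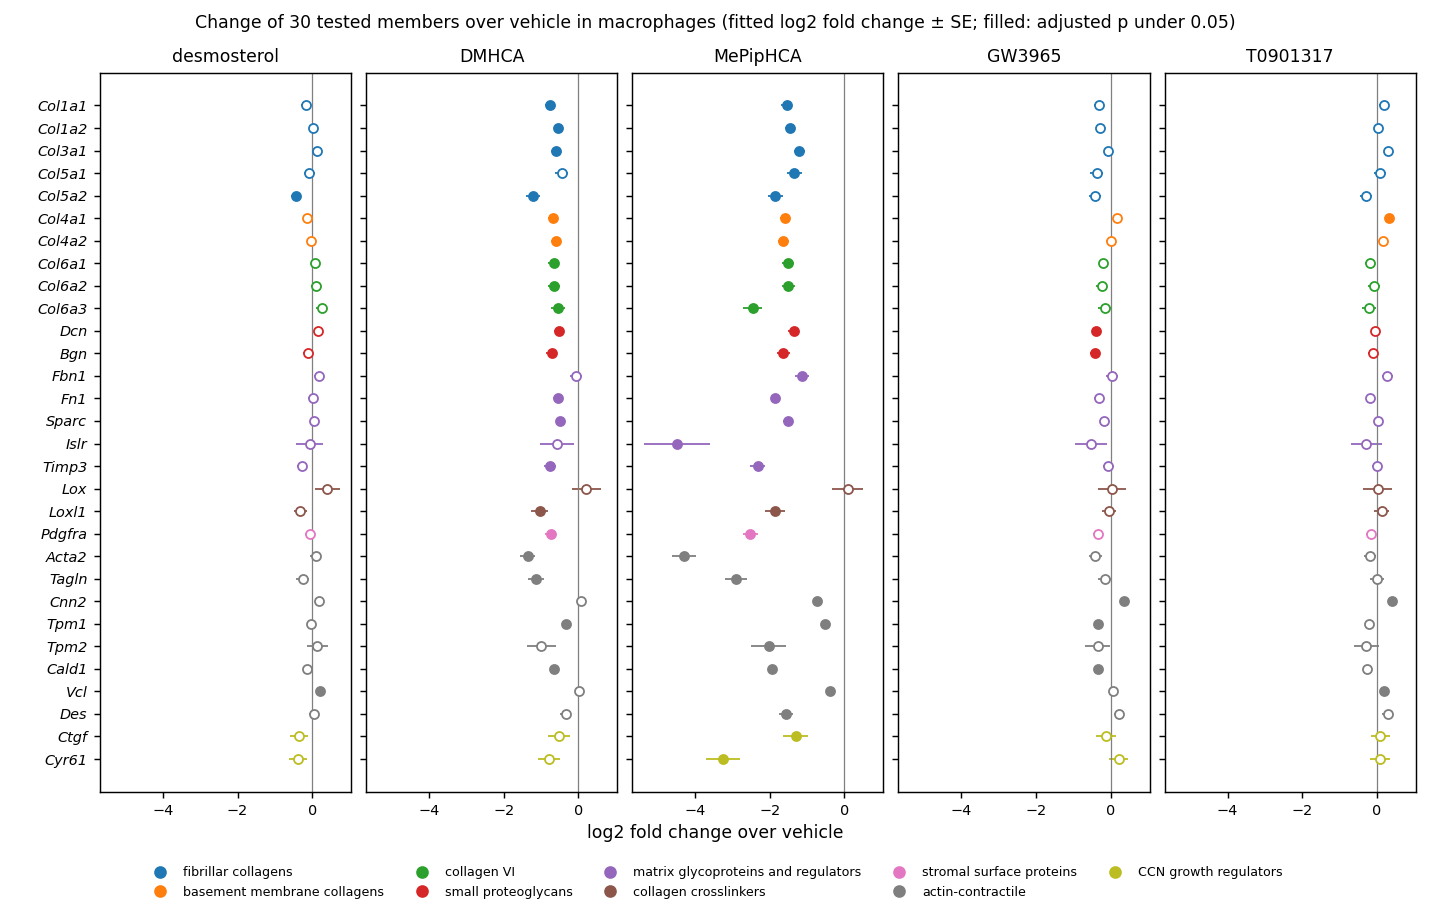
Log2 fold change ± SE over vehicle of the 30 tested genes in macrophages, 1 panel a ligand, coloured by role, with filled points for genes past the threshold. With MePipHCA 29 points lie left of 0 and are filled, with DMHCA 20, while with desmosterol, GW3965 and T0901317 at most 5 are filled.

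Among the fibrillar collagens, Col1a1, which encodes the main chain of type I collagen (NM_007742, mm10 chromosome 11, 94936270 to 94951856, plus strand), stood at 55.5, 64.0 and 49.7 CPM in the vehicle libraries, at 27.0, 44.4 and 27.8 with DMHCA and at 17.1, 23.3 and 18.0 with MePipHCA. Col1a1 stood at 43.4, 50.3 and 57.2 CPM with desmosterol, at 53.5, 38.7 and 45.2 with GW3965 and at 64.0, 77.2 and 56.7 with T0901317. The MePipHCA libraries were the 3 lowest of 18, and each DMHCA library lay below each vehicle library but replicate 2 overlapped the desmosterol and GW3965 libraries. Col1a1 fell by 0.77 ± 0.13 with DMHCA (adjusted p = 3.78e-05) and by 1.55 ± 0.15 with MePipHCA (adjusted p = 1.86e-11). Col3a1, which encodes the type III collagen of pliable tissues (NM_009930), stood at 27.0, 35.6 and 26.9 CPM in vehicle, at 16.8, 23.7 and 18.2 with DMHCA and at 11.7, 15.1 and 12.6 with MePipHCA. Col3a1 stood at 32.1, 34.7 and 32.6 CPM with desmosterol, at 25.7, 31.4 and 28.6 with GW3965 and at 35.0, 46.4 and 33.2 with T0901317. The 3 groups vehicle, DMHCA and MePipHCA did not overlap, and Col3a1 fell by 0.61 ± 0.13 and 1.21 ± 0.14. Col5a2, of the type V collagen that starts fibre assembly, fell by 1.21 ± 0.18 and 1.85 ± 0.20, the largest changes of the 5 fibrillar genes. Col1a2 fell by 0.54 ± 0.11 and 1.46 ± 0.12. Col5a1 fell by 1.34 ± 0.21 with MePipHCA, and its change with DMHCA was -0.45 ± 0.18 (adjusted p = 0.11). The latter was called with no low-count filter (-0.45, adjusted p = 0.0383) and from the groups compared alone (-0.45, adjusted p = 0.0493). It was called without DMHCA replicate 2 too (-0.68, adjusted p = 0.0284).

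The type IV genes of basement membranes fell with both amides. Col4a1 (NM_009931) stood at 32.8, 44.1 and 34.0 CPM in vehicle, at 23.1, 23.6 and 22.6 with DMHCA and at 12.8, 12.5 and 11.9 with MePipHCA. Col4a1 stood at 30.1, 34.0 and 37.4 CPM with desmosterol, at 44.5, 37.6 and 44.5 with GW3965 and at 44.6, 57.1 and 42.9 with T0901317. Vehicle, DMHCA and MePipHCA libraries formed 3 separate ranges, and the T0901317 libraries reached above vehicle while overlapping it. Col4a1 fell by 0.69 ± 0.12 with DMHCA and 1.60 ± 0.14 with MePipHCA, and its head-to-head neighbour Col4a2 by 0.60 ± 0.13 and 1.64 ± 0.15.

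Of the collagen VI genes, Col6a1 stood at 20.9, 30.4 and 24.1 CPM in vehicle, at 13.9, 18.5 and 15.4 with DMHCA and at 7.58, 10.4 and 8.95 with MePipHCA, again as 3 separate ranges. Col6a1 stood at 24.4, 30.6 and 25.1 CPM with desmosterol, at 19.9, 21.7 and 24.3 with GW3965 and at 24, 22.0 and 21.3 with T0901317. Col6a1 fell by 0.66 ± 0.14 with DMHCA and by 1.51 ± 0.16 with MePipHCA. Col6a3, the longest chain, stood at 11.8, 13.2 and 13.3 CPM in vehicle and at 1.95, 3.77 and 1.61 with MePipHCA, and fell by 2.46 ± 0.25, the largest change of any collagen in the list. With DMHCA it stood at 7.6, 9.08 and 9.08 CPM and fell by 0.55 ± 0.19 (adjusted p = 0.0434). That call was lost without any 1 of the DMHCA libraries (without replicate 1, -0.49, adjusted p = 0.142; without replicate 2, -0.59, adjusted p = 0.0883; without replicate 3, -0.59, adjusted p = 0.114). It was also lost without vehicle replicate 2 (-0.53, adjusted p = 0.128) or 3 (-0.53, adjusted p = 0.106), by DESeq2 (-0.55, adjusted p = 0.0708) and at equal depth, with all libraries thinned to 1 total (-0.55, adjusted p = 0.107). Col6a2 fell by 1.5 ± 0.18 with MePipHCA and by 0.66 ± 0.16 with DMHCA, the latter not called at equal depth (-0.42, adjusted p = 0.236).

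Decorin, the proteoglycan that binds collagen fibres, fell in the same order. Dcn stood at 36.5, 36.2 and 39.2 CPM in vehicle, at 22.3, 26.9 and 27.6 with DMHCA and at 11, 12.5 and 18.6 with MePipHCA, without overlap. Dcn stood at 35.9, 43.2 and 44.6 CPM with desmosterol, at 22.4, 29.9 and 31.9 with GW3965 and at 41.7, 36.1 and 33.1 with T0901317. Dcn fell by 0.52 ± 0.12 with DMHCA and by 1.36 ± 0.14 with MePipHCA, and Bgn by 0.71 ± 0.15 and 1.64 ± 0.17. Lum, which encodes lumican, was too low to be tested, with 49 counts in vehicle and 5 with MePipHCA.

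Fibronectin, the adhesive glycoprotein made by macrophages and stromal cells alike, was the most abundant member. Fn1 stood at 819, 1284 and 991 CPM in vehicle, at 577, 804 and 729 with DMHCA and at 261, 295 and 301 with MePipHCA. Fn1 stood at 773, 1300.0 and 1038 CPM with desmosterol, at 881, 848 and 748 with GW3965 and at 862, 1083 and 823 with T0901317. Each MePipHCA library lay below all others, and the DMHCA libraries lay below vehicle by a narrow margin. Fn1 fell by 1.85 ± 0.13 with MePipHCA. Its fall with DMHCA, by 0.55 ± 0.12, was not called without vehicle replicate 2, the highest of that group (-0.36, adjusted p = 0.0538), or by DESeq2 (-0.55, adjusted p = 0.0633). Sparc stood at 95.7, 136 and 103 CPM in vehicle, at 67.6, 91.7 and 76.1 with DMHCA and at 35.3, 40.6 and 41.1 with MePipHCA. Sparc stood at 93.4, 135 and 115 CPM with desmosterol, at 92.6, 101 and 101 with GW3965 and at 108, 125 and 112 with T0901317. Its vehicle, DMHCA and MePipHCA libraries did not overlap, and it fell by 0.50 ± 0.11 and 1.52 ± 0.12. Timp3, a matrix-bound inhibitor of metalloproteinases, fell by 0.77 ± 0.16 and 2.33 ± 0.20. Fbn1, which encodes the microfibril protein fibrillin, fell by 1.14 ± 0.19 with MePipHCA and changed by -0.07 ± 0.16 with DMHCA (adjusted p = 0.856). Islr, a secreted protein of mesenchymal cells, fell with MePipHCA, where it had 1 count against 70 in vehicle, a 28.3-fold lower level (95% exact interval 4.92 to 1140.0, counting error only). Postn, which encodes periostin, was not tested, with 22 counts in vehicle and 2 with MePipHCA.

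The crosslinking enzymes parted. Lox stood at 1.29, 2.12 and 2.11 CPM in vehicle, at 2.36, 2.1 and 2.14 with DMHCA and at 1.95, 2.83 and 1.47 with MePipHCA, overlapping throughout. Its change with MePipHCA was 0.09 ± 0.41 (adjusted p = 0.886, 95% interval -0.73 to 0.91), and it was the only one of the 30 tested genes that MePipHCA did not lower. Its relative Loxl1 fell by 1.86 ± 0.26 with MePipHCA and by 1.04 ± 0.23 with DMHCA, the latter not called at equal depth (-0.73, adjusted p = 0.103). Of the surface proteins, Pdgfra, a growth factor receptor of fibroblasts, stood at 43.4, 56.9 and 45.5 CPM in vehicle, at 14.4, 39.5 and 30.5 with DMHCA and at 9.1, 7.78 and 8.51 with MePipHCA. DMHCA replicate 1 was the lowest of its group, still above each MePipHCA library, and Pdgfra fell by 0.74 ± 0.14 and 2.52 ± 0.19. Pdgfrb and Thy1 were not tested, with 20 and 46 counts in vehicle.

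Of the contractile genes, Acta2 (NM_007392, mm10 chromosome 19, 34240336 to 34255373, minus strand) stood at 15.7, 24.8 and 16.0 CPM in vehicle, at 8.12, 6.81 and 7.61 with DMHCA and at 0.65, 1.42 and 0.88 with MePipHCA. Acta2 stood at 16.4, 22.0 and 22.3 CPM with desmosterol, at 11.9, 13.2 and 16.9 with GW3965 and at 14.1, 24.8 and 14.1 with T0901317. The MePipHCA libraries were the 3 lowest of 18 and the DMHCA libraries the next 3. Acta2 fell by 1.35 ± 0.20 with DMHCA, 2.56-fold (adjusted p = 3.01e-06), and by 4.30 ± 0.32 with MePipHCA, 19.7-fold (adjusted p = 1.86e-14). In MePipHCA libraries of 4.24 to 6.8 M counts these levels rest on few counts, which limits the size of that fall. Tagln (NM_011526) stood at 8.77, 11.7 and 8.1 CPM in vehicle, at 4.45, 4.89 and 3.87 with DMHCA and at 1.52, 0.708 and 1.47 with MePipHCA, 3 separate ranges. Tagln stood at 6.37, 8.42 and 9.61 CPM with desmosterol, at 9.71, 7.41 and 9.2 with GW3965 and at 6.69, 11.8 and 10.2 with T0901317. Tagln fell by 1.14 ± 0.22 and 2.91 ± 0.30. The annotation places 60.9% of its exonic bases under genes of the opposite strand, and whether counting used strand is not given in the sources used here. Of these genes Pcsk7, a protease gene, changed by 0.16 ± 0.10 with MePipHCA (adjusted p = 0.228). Cald1 fell by 0.65 ± 0.11 and 1.93 ± 0.13.

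Desmin fell by 1.57 ± 0.18 with MePipHCA and changed by -0.34 ± 0.15 with DMHCA (adjusted p = 0.146), though it was called without vehicle replicate 1 (-0.46, adjusted p = 0.0435). The tropomyosin gene Tpm2 fell by 2.03 ± 0.47 and changed by -0.99 ± 0.39 (adjusted p = 0.0975). Myl9, the regulatory light chain of smooth muscle myosin, was not tested, but had 33 counts in vehicle and 0 in the 3 MePipHCA libraries, at least 4.56-fold lower with a floor of 3 counts over the group. Cnn1, Actg2 and Lmod1 had 0, 2 and 2 counts in vehicle and were not tested.

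Calponin 2, tropomyosin 1 and vinculin moved less with both amides than the other contractile genes tested. Which cells their RNA came from was not tested. Cnn2 (NM_007725) stood at 80.9, 84.0 and 83.6 CPM in vehicle, at 80.2, 86.6 and 94.2 with DMHCA and at 50.7, 47.4 and 50.7 with MePipHCA. Cnn2 stood at 89.1, 101 and 93.4 CPM with desmosterol, at 110.0, 103 and 104 with GW3965 and at 105, 125 and 102 with T0901317. Its MePipHCA libraries lay below all others and its desmosterol, GW3965 and T0901317 libraries above all vehicle libraries. Cnn2 fell by 0.74 ± 0.08 with MePipHCA and changed by 0.08 ± 0.07 with DMHCA (adjusted p = 0.566, 95% interval -0.06 to 0.23). Vcl (NM_009502) stood at 157, 162 and 159 CPM in vehicle, at 152, 168 and 161 with DMHCA and at 121, 131 and 117 with MePipHCA. Vcl stood at 183, 178 and 189 CPM with desmosterol, at 172, 160.0 and 171 with GW3965 and at 185, 182 and 178 with T0901317. Only its MePipHCA libraries lay below vehicle without overlap, and Vcl fell by 0.38 ± 0.06 there and changed by 0.01 ± 0.06 with DMHCA (adjusted p = 0.948). Of its exonic bases 39.7% lie under Ap3m1 on the opposite strand, an adaptor subunit gene that rose by 0.27 ± 0.10 with MePipHCA (adjusted p = 0.0269). Tpm1 stood at 85.1, 85.5 and 82.9 CPM in vehicle, at 68.4, 72.5 and 63.4 with DMHCA and at 63.0, 60.6 and 55.1 with MePipHCA. Tpm1 stood at 82.4, 75.4 and 91.0 CPM with desmosterol, at 59.6, 68.3 and 71.1 with GW3965 and at 75.4, 72.7 and 72.4 with T0901317. Its vehicle, DMHCA and MePipHCA libraries were separate, and Tpm1 fell by 0.51 ± 0.08 with MePipHCA. Its fall with DMHCA, by 0.32 ± 0.08, was not called without DMHCA replicate 3 (-0.26, adjusted p = 0.0611).

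Of the CCN genes, Cyr61 (NM_010516) stood at 6.55, 7.18 and 4.81 CPM in vehicle, at 1.31, 3.67 and 4.94 with DMHCA and at 0.0, 1.65 and 0.44 with MePipHCA. Cyr61 stood at 3.57, 5.51 and 5.06 CPM with desmosterol, at 8.2, 5.67 and 7.97 with GW3965 and at 6.94, 9.02 and 5.3 with T0901317. The MePipHCA libraries lay below every vehicle library, and the DMHCA libraries overlapped vehicle. Cyr61 fell by 3.25 ± 0.45 with MePipHCA, 9.52-fold, and changed by -0.78 ± 0.29 with DMHCA (adjusted p = 0.0826). The DMHCA change was called with no low-count filter (-0.78, adjusted p = 0.0201) and from the groups compared alone (-0.77, adjusted p = 0.0329). It was called without DMHCA replicate 3 too (-1.2, adjusted p = 0.0381). Ctgf stood at 3.97, 4.94 and 4.47 CPM in vehicle, at 2.88, 3.84 and 2.67 with DMHCA and at 3.68, 1.18 and 0.88 with MePipHCA. Ctgf stood at 2.7, 3.44 and 4.45 CPM with desmosterol, at 3.89, 4.21 and 4.15 with GW3965 and at 2.98, 6.51 and 4.87 with T0901317. MePipHCA replicate 1 lay close to vehicle and the other 2 far below. Ctgf fell by 1.31 ± 0.34 with MePipHCA (adjusted p = 0.00216), a call lost without MePipHCA replicate 3 (-0.85, adjusted p = 0.0834), and changed by -0.52 ± 0.29 with DMHCA (adjusted p = 0.302). An antisense gene overlaps 22.9% of its exonic bases.

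**Figure D3:**
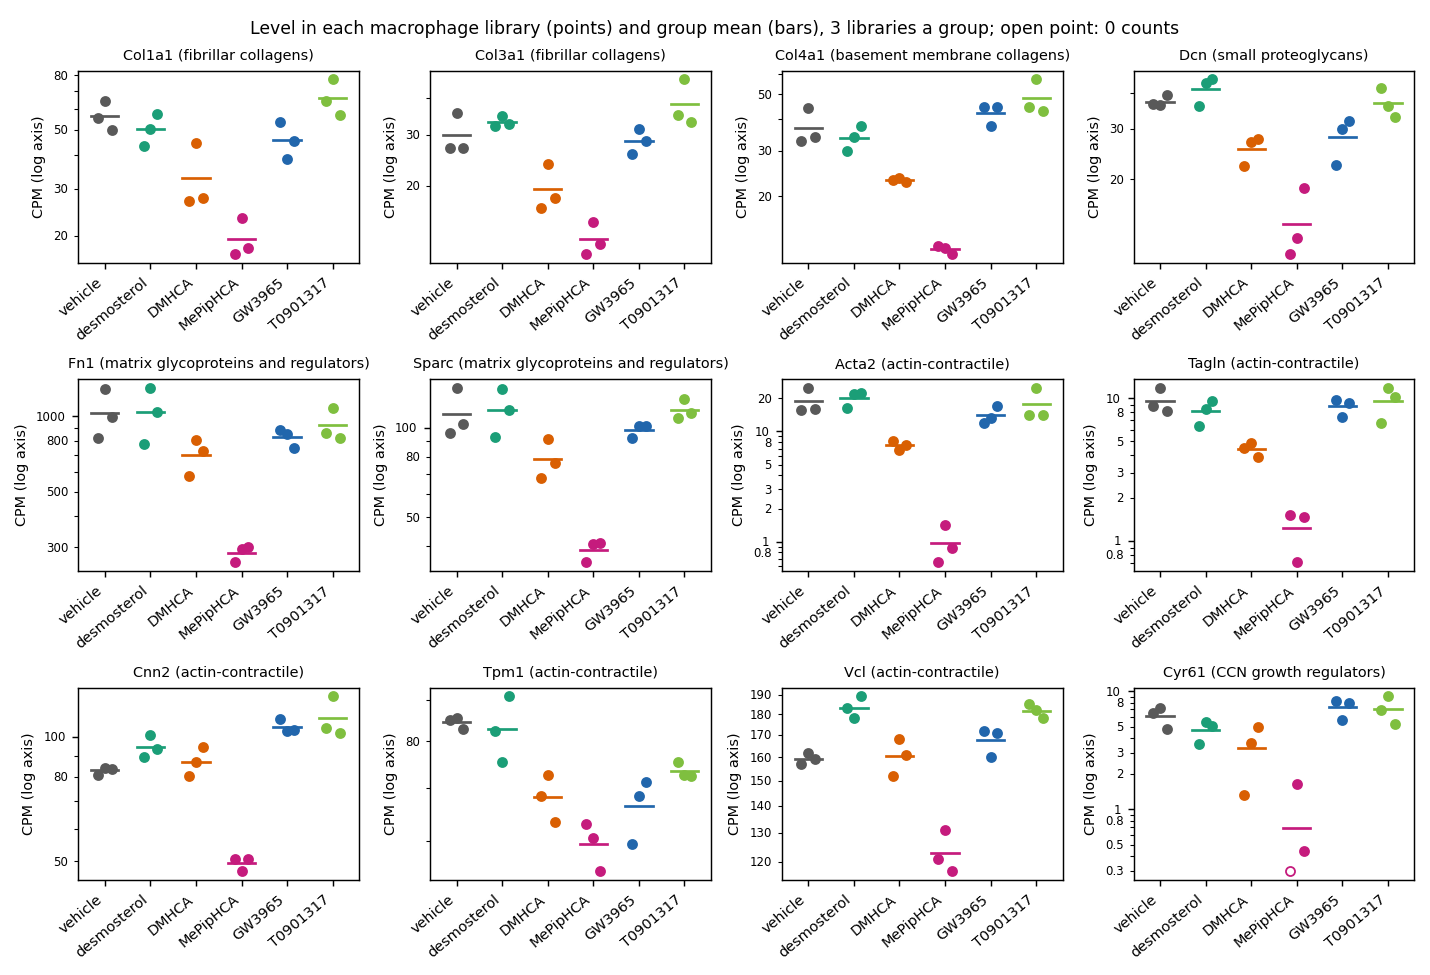
Level of selected genes in each of the 18 macrophage libraries, in CPM on log axes, with 1 point a library, a bar at each group's mean and an open point for a library at 0. Acta2 and Cyr61 have their lowest points with MePipHCA, and Cnn2 lies lower with MePipHCA and higher with desmosterol, GW3965 and T0901317 than with vehicle.

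Matrix and contractile genes can be set side by side for each ligand. With MePipHCA all 12 tested collagens and proteoglycans fell, with a median of -1.53 and a range of -2.46 to -1.21, where 18.3% of all genes fell. All 8 tested contractile genes fell too, with a median of -1.75 and a range of -4.30 to -0.38. Without Cnn2, Vcl and Tpm1, the contractile median was -2.03, the value of Tpm2, a gene of few counts. Cnn2, Vcl and Tpm1 had the smallest contractile changes with both amides, so leaving them out could only raise the size of the median. With DMHCA 11 of 12 matrix genes fell (median -0.63) and 4 of 8 contractile genes (median -0.49), where 5.9% of all genes fell. Once Cnn2, Vcl and Tpm1 were left out, 3 of 5 contractile genes were lower. Their median was -0.99, the value of Tpm2, which was not called. With GW3965 the medians were -0.27 and -0.24, with T0901317 -0.01 and -0.09, and with desmosterol 0.01 and 0.07.

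The summed level of the 13 matrix genes was 433 ± 62.4 CPM (SD, n = 3) in vehicle, 277 ± 50.4 with DMHCA and 152 ± 12.5 with MePipHCA. It was 430.0 ± 47.4 with desmosterol, 370.0 ± 11.3 with GW3965 and 462 ± 60.8 with T0901317. All DMHCA, MePipHCA and GW3965 libraries lay below the vehicle range of 391 to 505 CPM, GW3965 at 362 to 383, while desmosterol and T0901317 overlapped vehicle. The contractile genes other than Cnn2, Vcl and Tpm1 summed to 85.9 ± 14.2 CPM in vehicle, 51.2 ± 3.19 with DMHCA and 18.6 ± 0.935 with MePipHCA. Cnn2, Vcl and Tpm1 together stood at 327 ± 4.64, 315 ± 13.5 and 232 ± 8.69 CPM, so that the DMHCA and vehicle ranges of this sum overlapped. The log2 ratio of Acta2 to Col1a1 was -1.61 ± 0.23 in vehicle, -2.10 ± 0.53 with DMHCA and -4.37 ± 0.34 with MePipHCA. The MePipHCA ratios (-4.72 to -4.04), which rest on few Acta2 counts, lay below those of every other library, while DMHCA (-2.70 to -1.73) overlapped vehicle (-1.82 to -1.37).

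**Figure D4:**
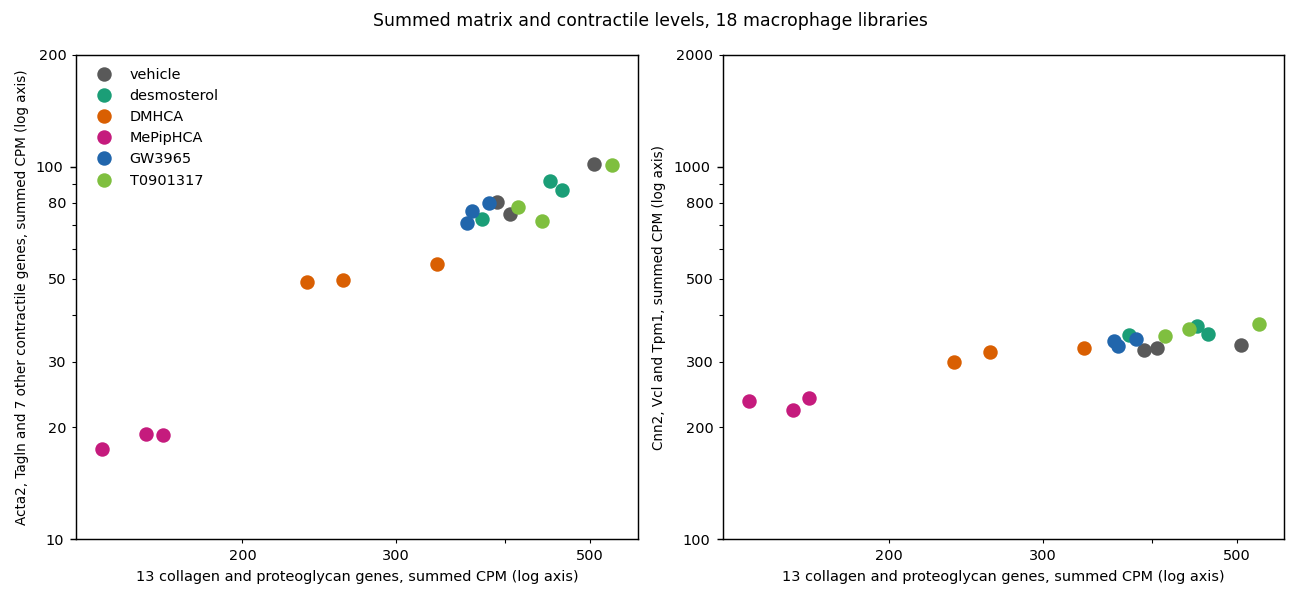
Summed contractile level, without Cnn2, Vcl and Tpm1 (left panel) and of these 3 genes (right panel), against the summed level of the 13 matrix genes, in CPM on log axes, with 1 point for each of the 18 macrophage libraries, coloured by ligand. The MePipHCA libraries lie lowest on both axes and the DMHCA libraries between them and vehicle for the contractile sum without Cnn2, Vcl and Tpm1.

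Set directly against DMHCA at the matched dose, MePipHCA gave lower levels of 24 of 30 genes and higher levels of 0, where 22.9% of all genes tested were called and 12.1% were lower. The median difference was -0.93, with 11 of 12 matrix genes (median -0.87) and 6 of 8 contractile genes (median -1.13) lower. Acta2 differed by -2.94 ± 0.41, Cyr61 by -2.47 ± 0.54, Col6a3 by -1.91 ± 0.29, Pdgfra by -1.79 ± 0.21 and Tagln by -1.76 ± 0.37. The smallest called differences were those of Vcl (-0.39 ± 0.06) and Col3a1 (-0.60 ± 0.17), while Cnn2, which DMHCA did not change, differed by -0.82 ± 0.08. The calls of Col3a1 and Col5a1 were lost without DMHCA replicate 2 (-0.43, adjusted p = 0.101, and -0.65, adjusted p = 0.079), and that of Col3a1 at equal depth (-0.48, adjusted p = 0.0616). Not called were Col5a2 (-0.64 ± 0.25), Lox (-0.12 ± 0.45), Loxl1 (-0.83 ± 0.33), Tpm1 (-0.20 ± 0.08), Tpm2 (-1.03 ± 0.59) and Ctgf (-0.78 ± 0.40), with 95% intervals of -1.14 to -0.15 for Col5a2 and -0.37 to -0.02 for Tpm1.

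Against T0901317 at the same dose, MePipHCA gave lower levels of 29 of 30 genes, where 13.9% of all genes were lower, and DMHCA of 17 of 30, where 2.87% were lower. Acta2 differed by -4.12 ± 0.35 and -1.17 ± 0.22, Col1a1 by -1.74 ± 0.16 and -0.96 ± 0.14, Col4a1 by -1.94 ± 0.14 and -1.04 ± 0.12, and Cnn2 by -1.14 ± 0.08 and -0.32 ± 0.07. Between GW3965 and T0901317, 0 of 30 genes were called by edgeR, where 0.0173% of all genes, 2 in number, were. The 95% intervals of that difference were -0.62 to 0.16 for Acta2 and -0.78 to -0.25 for Col1a1.

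The other ligands moved few members. T0901317 raised 3 of 30 (Cnn2, Vcl and Col4a1), where 6.29% of all genes rose. Cnn2 rose by 0.40 ± 0.07. Vcl rose by 0.19 ± 0.06, a call lost without T0901317 replicate 1 (0.17, adjusted p = 0.0738), vehicle replicate 1 (0.17, adjusted p = 0.0607) or vehicle replicate 3 (0.18, adjusted p = 0.0561). It was also lost at equal depth (0.13, adjusted p = 0.229) and with no low-count filter (0.18, adjusted p = 0.0538). Col4a1 rose by 0.34 ± 0.11, a call lost without T0901317 replicate 2 (0.22, adjusted p = 0.224), vehicle replicate 1 (0.27, adjusted p = 0.135) or vehicle replicate 3 (0.29, adjusted p = 0.127). The call of Cnn2 was kept without any 1 of these libraries.

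GW3965 raised Cnn2 by 0.35 ± 0.07, 1 of 30 genes, and lowered 4, where 6.54% of all genes rose and 6.69% fell. Tpm1 fell by 0.34 ± 0.07. Dcn fell by 0.38 ± 0.12, a call lost without GW3965 replicate 1 (-0.27, adjusted p = 0.182) or vehicle replicate 3 (-0.34, adjusted p = 0.0887) and at equal depth (-0.40, adjusted p = 0.055). Bgn, whose vehicle replicate 2 was high, fell by 0.42 ± 0.14, a call lost without that library (-0.17, adjusted p = 0.573), GW3965 replicate 1 (-0.36, adjusted p = 0.149) or 2 (-0.38, adjusted p = 0.159) and by DESeq2 (-0.42, adjusted p = 0.252). Cald1 fell by 0.33 ± 0.10, a call lost without GW3965 replicate 1 (-0.29, adjusted p = 0.103) or 2 (-0.31, adjusted p = 0.105), or vehicle replicate 1 (-0.29, adjusted p = 0.0988) or 2 (-0.27, adjusted p = 0.151). The 2 contractile genes Cnn2 and Tpm1 therefore moved in opposite directions with GW3965.

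Desmosterol, at a 10-fold higher dose than the synthetic ligands and so not compared with them, moved 2 of 30 genes, where 9.5% of all genes were called. Vcl rose by 0.20 ± 0.05, a call lost at equal depth (0.17, adjusted p = 0.108). Col5a2 fell by 0.44 ± 0.14 (adjusted p = 0.0462). That call was lost by DESeq2 (-0.43, adjusted p = 0.0975), at equal depth (-0.38, adjusted p = 0.327) and without desmosterol replicate 1 (-0.38, adjusted p = 0.143), 2 (-0.45, adjusted p = 0.0643) or 3 (-0.48, adjusted p = 0.0582), or vehicle replicate 2 (-0.33, adjusted p = 0.302) or 3 (-0.47, adjusted p = 0.0745).

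Most markers of mesothelial cells, the lining of the peritoneum, fell with MePipHCA as the matrix genes did, and few with the other ligands. The list summed to 30.0 to 37.2 CPM in vehicle macrophages, 21.0 to 29.0 with DMHCA and 10.1 to 11.9 with MePipHCA. In vehicle Wt1, a mesothelial transcription factor, stood at 8.46 ± 1.51 CPM, the uroplakin Upk3b at 6.64 ± 2.07 and mesothelin (Msln) at 3.54 ± 0.376. With MePipHCA 7 of the 9 tested fell (median -1.81), against 18.3% of all genes, among them Upk1b (-2.51 ± 0.44), Upk3b (-2.41 ± 0.34) and Gpm6a (-2.35 ± 0.51). With DMHCA 1 of 9 fell, Upk3b (-0.96 ± 0.27), against 5.9% of all genes, and the list's median was -0.55. With desmosterol 1 of 9 fell (median 0.16), where 9.5% of all genes were called. With GW3965 and T0901317 0 of 9 were called, where 6.69% of all genes fell with GW3965 and 6.29% rose with T0901317. Smooth muscle and pericyte markers summed to only 1.2 to 2.25 CPM in vehicle and 0.0 to 1.42 with MePipHCA, and 0 of 6 could be tested.

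Among markers of hepatic stellate cells, 1 of the 2 tested fell with MePipHCA, where 18.3% of all genes fell. This was the transcription factor gene Hand2 (-2.63 ± 0.31). The other, the growth factor gene Hgf, stood at 24.7 ± 2.57 CPM in vehicle, most of the list's summed level. Hgf changed by 0.23 ± 0.11 with MePipHCA (adjusted p = 0.102). With DMHCA the 2 genes parted: Hand2 fell (-0.89 ± 0.23) and Hgf rose, where 5.9% of all genes fell and 11.7% were called. The list's sum went from a range of 30.4 to 34.8 CPM in vehicle to one of 28.6 to 31.4 with MePipHCA.

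Macrophage markers summed to 16454 to 17567 CPM with DMHCA, where 3 of 8 fell and 2 rose, against 5.9% of all genes lower and 11.7% called. With MePipHCA they summed to 13040.0 to 13257, where 5 of 8 fell and 1 rose, against 18.3% lower and 35.4% called. Most of the sum was Lyz2, at 10733 ± 280 CPM of 16466 to 16551 in vehicle. Endothelial markers went from 26.9 to 28.2 to 27.1 to 32.1 CPM with MePipHCA, with Clec4g at 0, and those of neutrophils, eosinophils and mast cells from 15.8 to 18.4 to 18.0 to 18.9 with S100a9 and Epx at 0. Lymphocyte markers stood at 1.44 to 2.03 and 1.32 to 1.73 CPM, and the hepatocyte list, with Ttr and Tat at 0, at 691 to 734 and 517 to 520.0. Nearly all of the hepatocyte sum was Trf (710 ± 21.8 CPM in vehicle), the 1 gene of that list tested, while Alb stood at 0.123 ± 0.213. Most of the endothelial sum was likewise Kdr (24.9 ± 0.706 CPM in vehicle), with Pecam1 at 0.317 ± 0.195. Of the 2 endothelial markers tested, 1 rose and 0 fell with every ligand. The share of all genes called was 9.5% with desmosterol, 11.7% with DMHCA and 35.4% with MePipHCA. With GW3965 6.54% of all genes rose and with T0901317 6.29%. Stab2 stood at 1.72 ± 0.515 CPM in vehicle and reached 13.8 in the highest macrophage library. The part of these cell types, and of the lower depth of the amide libraries, in the fall of the matrix and contractile genes was not tested beyond the thinning to equal depth named above.

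Other genes of these pathways were counted on lists, beside which 18.3% of all genes fell and 35.4% were called with MePipHCA, and 5.9% and 11.7% with DMHCA. Of 5 tested collagens outside the 38, 3 fell with MePipHCA (median -1.48), Col12a1 (-4.40 ± 0.82), Col4a5 (-2.13 ± 0.24) and Col18a1 (-1.48 ± 0.36), and 2 with DMHCA (median -0.78). Enzymes and chaperones of collagen processing split. Of 15 tested, 8 fell with MePipHCA, among them the procollagen C-proteinase enhancer Pcolce (-3.39 ± 0.39), Loxl2 (-1.70 ± 0.31) and Plod2, a lysyl hydroxylase, (-1.65 ± 0.28). A further 6 rose, among them the prolyl hydroxylase subunits P4ha2 (1.30 ± 0.31) and P4hb, also a general disulphide isomerase, (0.83 ± 0.05), and the secretory coat gene Sec23a (0.73 ± 0.10). The summed level of the list was 1161 to 1171 CPM in vehicle and 1608 to 1646 with MePipHCA. It lay above vehicle with every other ligand too, also where few collagens moved. The ranges were 1315 to 1335 CPM with DMHCA, 1283 to 1339 with desmosterol, 1231 to 1297 with GW3965 and 1302 to 1378 with T0901317. With DMHCA 2 of the 15 rose and 1 fell.

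Of 17 tested actin cytoskeleton and SRF target genes 10 fell with MePipHCA and 0 rose (median -0.22), led by Tgfb1i1, an adhesion adaptor, (-1.96 ± 0.43), Filip1l (-0.90 ± 0.15) and the smooth muscle gene smoothelin (Smtn) (-0.77 ± 0.22). With DMHCA 1 rose and 1 fell of the 17, near the shares among all genes. Of 17 tested genes of TGF-beta signalling, which drives matrix synthesis, 8 fell and 3 rose with MePipHCA (median -0.31). The latent TGF-beta binding protein Ltbp2 fell (-1.89 ± 0.22), the ligand Tgfb3 (-1.54 ± 0.31) and the co-receptor endoglin (Eng) (-0.89 ± 0.10), and with DMHCA 2 fell. Of 10 tested YAP and TEAD genes 6 fell and 1 rose with MePipHCA (median -0.50), Tead1 (-1.91 ± 0.26), Yap1 (-1.83 ± 0.34) and Ajuba (-1.63 ± 0.51), and 3 fell with DMHCA. The shares of all genes called are those given above, 18.3% lower with MePipHCA and 5.9% with DMHCA, and the median of all genes was 0.0 in each of these comparisons.

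In hepatocytes few of the 16 tested members moved. With DMHCA 0 were called, where 0.0% of all genes were. With MePipHCA 2 fell, both of type IV collagen, where 1.38% of all genes fell. Col4a2 stood at 124 and 135 CPM in vehicle and 88.9 and 89.8 with MePipHCA, and fell by 0.53 ± 0.10 (adjusted p = 0.00144). Col4a1 stood at 190.0 and 177 and 148 and 145 CPM, and at 241 and 247 with desmosterol, at 197 and 189 with DMHCA, at 179 and 185 with GW3965 and at 187 and 193 with T0901317. Its MePipHCA libraries were the lowest and its desmosterol libraries the highest of 12. Col4a1 fell by 0.33 ± 0.09 with MePipHCA, a call lost without MePipHCA replicate 1 (-0.34, adjusted p = 0.237) or 2 (-0.32, adjusted p = 0.324), or vehicle replicate 1 (-0.27, adjusted p = 0.361) or 2 (-0.38, adjusted p = 0.0659). It rose by 0.41 ± 0.09 with desmosterol, the 1 member called there, where 0.205% of all genes rose, and that call too was lost without any 1 of these 4 libraries (desmosterol replicate 1, 0.43, adjusted p = 0.102; desmosterol replicate 2, 0.39, adjusted p = 0.245; vehicle replicate 1, 0.47, adjusted p = 0.0728; vehicle replicate 2, 0.36, adjusted p = 0.351).

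Lox, which no ligand moved past the threshold in macrophages, fell in hepatocytes with the non-sterol agonists. Its level in vehicle macrophages was low, 0.335 ± 0.1 RPKM against 33.3 ± 0.468 in hepatocytes, so a change there would be hard to call. The interaction term described below called no member by edgeR with either agonist, so a difference between the cell types was not shown. In hepatocytes Lox stood at 190.0 and 201 CPM in vehicle, at 94.4 and 128 with GW3965 and at 88.4 and 106 with T0901317, below every vehicle library in both groups. It stood at 190.0 and 167 with desmosterol, at 142 and 191 with DMHCA and at 233 and 226 with MePipHCA. Lox fell by 1.01 ± 0.13 with T0901317 (adjusted p = 2.29e-05) and by 0.81 ± 0.13 with GW3965, the latter call lost without GW3965 replicate 1 (-0.60, adjusted p = 0.0756). It was the 1 member called with GW3965, where 0.114% of all genes fell, and with T0901317 1 of 2, where 0.455% fell. The other was Ctgf, at 1029 and 1075 CPM in vehicle and 800.0 and 888 with T0901317, which fell by 0.32 ± 0.08 (adjusted p = 0.0446). Ctgf stood at 1020.0 and 1134 CPM with desmosterol, at 1173 and 1138 with DMHCA, at 943 and 1061 with MePipHCA and at 914 and 928 with GW3965. Its call was lost without T0901317 replicate 1 (-0.24, adjusted p = 0.355), vehicle replicate 1 (-0.35, adjusted p = 0.0744) or vehicle replicate 2 (-0.29, adjusted p = 0.335). It was also lost at equal depth (-0.31, adjusted p = 0.0616) and with a mean CPM of at least 1 (-0.31, adjusted p = 0.0544).

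Between the amides in hepatocytes 4 of 16 members differed, where 3.3% of all genes did. Cnn2 stood at 37.1 and 30.3 CPM with DMHCA and 16.5 and 17.9 with MePipHCA, on either side of vehicle (22.1 and 26.9), a difference of -0.97 ± 0.16 (adjusted p = 0.000252). Its libraries stood at 29.5 and 27.1 CPM with desmosterol, 26.0 and 27.0 with GW3965 and 27.9 and 28.7 with T0901317. Col4a2 was lower with MePipHCA (-0.59 ± 0.09), as was Col4a1 (-0.40 ± 0.08, lost without MePipHCA replicate 1, -0.41, adjusted p = 0.0671, or 2, -0.39, adjusted p = 0.0882). Lox was higher by 0.47 ± 0.12, a call lost by DESeq2 (0.47, adjusted p = 0.157) and without DMHCA replicate 1 (0.27, adjusted p = 0.43), MePipHCA replicate 1 (0.44, adjusted p = 0.207) or 2 (0.48, adjusted p = 0.125). Cnn1, not tested, had 5 and 9 counts in the vehicle libraries, 1 over the group with desmosterol, 1 with DMHCA and 0 with MePipHCA, GW3965 and T0901317.

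The response of a gene in macrophages was set against that in hepatocytes by an interaction term in a fit of all 30 libraries. The 16 members tested in both cell types differed in 12 cases with MePipHCA, 12 of them lower in macrophages, where 4.62% of all genes were lower. Cyr61, one of the highest members in hepatocytes, changed there by -0.03 ± 0.08 with MePipHCA, and the difference of the 2 responses was -3.23 ± 0.44. Tagln changed by 0.23 ± 0.57 in hepatocytes (difference -3.12 ± 0.51), Fn1 by -0.03 ± 0.08 (difference -1.81 ± 0.20) and Cald1 by 0.10 ± 0.08 (difference -2.01 ± 0.15). These genes, abundant in hepatocytes except Tagln, did not pass the test there. The type IV genes, which fell in both cell types, still differed, Col4a1 by -1.25 ± 0.17 and Col4a2 by -1.09 ± 0.19. With DMHCA 4 of 16 were lower, where 1.34% of all genes were, with desmosterol 2 differed, where 2.53% did, and with GW3965 and T0901317 0 by edgeR, where 3.11% and 3.64% did.

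**Figure D5:**
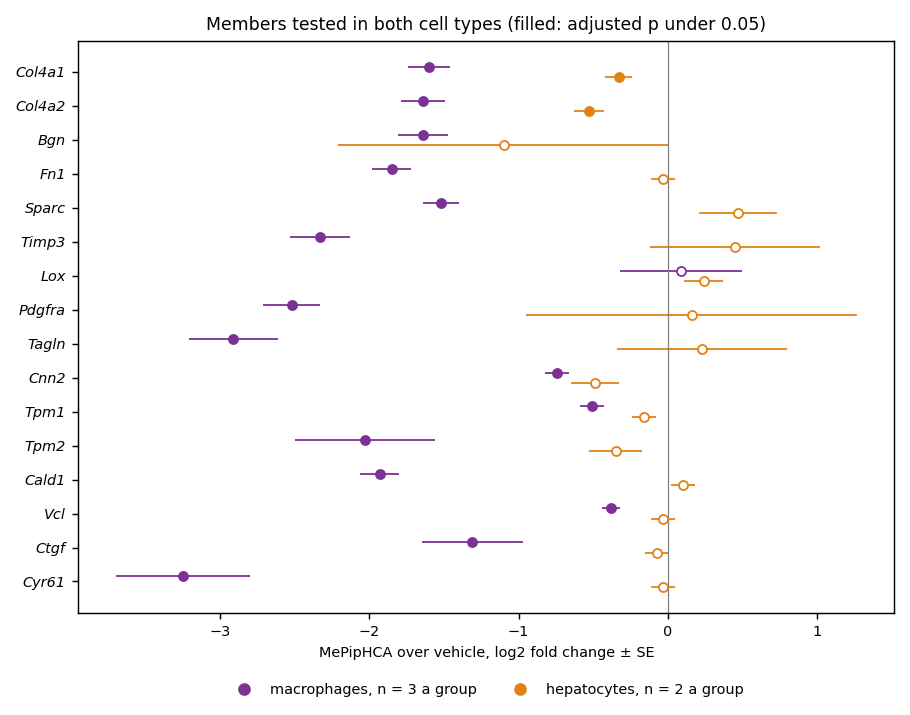
Log2 fold change ± SE with MePipHCA over vehicle of the 16 genes tested in both cell types, macrophages in purple (n = 3 a group) and hepatocytes in orange (n = 2 a group), with filled points past the threshold. All but Lox lie left of 0 and are filled in macrophages, while in hepatocytes only Col4a1 and Col4a2 are filled.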

How the data were processed

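Per the labels' protocols, polyadenylated RNA was sequenced from dUTP libraries of 223 to 375 base pairs. Per the submitters' processing notes, STAR, HOMER and mm10 were used, versions not given. Per the file headers, the authors' HOMER command counted reads over exons, giving raw counts, and gave RPKM in a second table, with 1 transcript a gene. The deposited counts entered edgeR 4.0.16 (R 4.3.3), with a filter on low counts, TMM scaling, a quasi-likelihood fit of the 6 groups of each cell type and Benjamini-Hochberg adjustment over 11544 genes in macrophages, 13176 in hepatocytes and 13700 in a joint fit. On simulated counts for MePipHCA, 89.8% of genes changed by 1 on the log2 scale were recovered in macrophages (11394 genes) and 77.9% in hepatocytes (12731 genes). False calls numbered 9 and 4. The simulation changed few genes, mixed all levels and gave each cell type 1 spread beyond sampling noise. These shares therefore do not carry over to members of low count. Members, gene lists and tests were chosen with earlier results of these data known. Values in every library were given for a preset list of members, and further members by largest change per role. Alternatives were DESeq2 1.42.0, other scaling and filters, thinning to equal depth, a replicate block and leaving out each library.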

Additional observations from a re-analysis of the deposited data

Results flagged for a closer look

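Log2 responses that differed between macrophages and hepatocytes by the interaction term (macrophages minus hepatocytes, ± SE, 16 genes tested in both) are given here as values. With MePipHCA these were Col4a1 (-1.25 ± 0.17), Col4a2 (-1.09 ± 0.19), Fn1 (-1.81 ± 0.20), Sparc (-1.96 ± 0.25), Timp3 (-2.72 ± 0.45), Pdgfra (-2.77 ± 0.75), Tagln (-3.12 ± 0.51), Tpm2 (-1.67 ± 0.52), Cald1 (-2.01 ± 0.15), Vcl (-0.34 ± 0.09), Ctgf (-1.24 ± 0.32) and Cyr61 (-3.23 ± 0.44). The call of Ctgf was lost without MePipHCA macrophage replicate 3 (-0.78, adjusted p = 0.196), and that of Pdgfra without MePipHCA hepatocyte replicate 2 (-2.80, 0.0901) or vehicle hepatocyte replicate 1 (-2.13, 0.148). The call of Vcl was lost without MePipHCA macrophage replicate 3 (-0.30, 0.0576) or vehicle hepatocyte replicate 1 (-0.32, 0.0594). That of Tpm2 was lost without any 1 MePipHCA macrophage library (adjusted p 0.0557, 0.102 and 0.104 without replicates 1, 2 and 3), vehicle macrophage replicate 2 (0.0675), MePipHCA hepatocyte replicate 1 (0.0553) or vehicle hepatocyte replicate 2 (0.0659). With all libraries thinned to equal depth, 9 of the 12 were called, without Pdgfra (-2.75, adjusted p = 0.142), Tpm2 (-1.27, 0.175) and Vcl (-0.27, 0.129).

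With DMHCA the differences were -0.78 ± 0.15 for Col4a1, -0.67 ± 0.16 for Col4a2, -0.93 ± 0.25 for Sparc and -0.60 ± 0.13 for Cald1. Cald1 was not called without DMHCA macrophage replicate 3 (-0.51, adjusted p = 0.067). Col4a2 was not called without DMHCA macrophage replicate 1 (-0.56, 0.0614), vehicle macrophage replicate 2 (-0.52, 0.0974) or vehicle hepatocyte replicate 1 (-0.62, 0.0824). Sparc was not called at equal depth (-0.46, 0.674), from the groups compared alone (-0.92, 0.0575), without DMHCA macrophage replicate 1 (0.0692) or 3 (0.0661), vehicle macrophage replicate 2 (0.0918), DMHCA hepatocyte replicate 1 (0.152), or vehicle hepatocyte replicate 1 (0.155) or 2 (0.0924).

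With desmosterol the differences were -0.55 ± 0.14 for Col4a1 and 0.32 ± 0.09 for Vcl. Vcl was not called without any 1 of the 10 vehicle and desmosterol libraries other than desmosterol macrophage replicate 2, at equal depth (0.32, adjusted p = 0.154), with no low-count filter (0.32, 0.155) or from the groups compared alone (0.31, 0.102). Col4a1 was not called without desmosterol macrophage replicate 1 (-0.48, adjusted p = 0.0733), vehicle macrophage replicate 2 (-0.40, 0.144), desmosterol hepatocyte replicate 2 (-0.51, 0.0833) or vehicle hepatocyte replicate 2 (-0.50, 0.0969), at equal depth (-0.44, 0.196) or from the groups compared alone (-0.55, 0.0557).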

How the results depend on the processing

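Counts of members past the threshold with DMHCA (20) and MePipHCA (29) in macrophages, and between the amides there (24), stayed within 1.5 times under every alternative, at 19 to 21, 29 to 30 and 23 to 25 when 1 library was left out. No result changed direction among those called. Smaller counts moved, and the cause was not tested. With desmosterol in macrophages 2 genes were called, 1 by DESeq2, 0 at equal depth and 1 to 2 with 1 library left out. With GW3965 in macrophages 5 were called, 11 with no low-count filter, 9 with a replicate block, 10 from the groups compared alone and 3 to 6 with 1 library left out. With T0901317 in macrophages 3 were called, and 1 to 6 with 1 library left out. Between GW3965 and T0901317 0 were called, 2 with no low-count filter and 1 from the groups compared alone. Against T0901317, 12 to 21 were called for DMHCA and 27 to 30 for MePipHCA with 1 library left out. In hepatocytes the counts with 1 library left out were 0 for desmosterol, 1 for MePipHCA, 0 to 1 for GW3965, 1 to 3 for T0901317 and 2 to 4 between the amides, and T0901317 gave 1 with a mean CPM of at least 1 or at equal depth. Interaction counts with 1 library left out were 0 to 2 for desmosterol, 2 to 6 for DMHCA and 9 to 12 for MePipHCA. The desmosterol interaction gave 1 with no low-count filter, and 0 at equal depth or from the groups compared alone, and the GW3965 interaction 1 with no low-count filter or a replicate block. Contractile medians without Cnn2, Vcl and Tpm1 were -0.99 (DMHCA), -2.03 (MePipHCA) and -0.33 (GW3965), and the genes left out were those that moved least with both amides. Over all genes tested, same-numbered libraries did not deviate together (correlations -0.05 to 0.14). In macrophages the summed matrix level peaked in replicate 2 of vehicle (505 CPM), desmosterol (464), DMHCA (334), MePipHCA (162) and T0901317 (530). With GW3965 it peaked in replicate 3 (383). The labels do not say whether same-numbered libraries belong together, and pairing was not tested for the members alone. For single genes, 5658 of 5885 alternatives left the outcome as it was, called or not called, while 94 gained a call and 133 lost one. The share kept among called genes alone was not counted. Genes with few counts a library, such as Islr, Tpm2, Ctgf and Cyr61, and Acta2 and Tagln with MePipHCA, are limited by depth in the amide libraries.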

Other observations

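Of the genes whose log2 CPM across the 18 macrophage libraries (pseudocount 0.5) was most like that of Acta2, the first 5 were Parva, an adhesion adaptor (Pearson r = 0.98), Il1r1, the interleukin 1 receptor (0.98), Fscn1, the actin bundler fascin (0.97), complement C3 (0.97) and the signalling adaptor Grb10 (0.97). With MePipHCA their log2 changes were -3.19 ± 0.26, -2.38 ± 0.23, -3.49 ± 0.23, -1.58 ± 0.12 and -1.99 ± 0.18. The 5 most like Col1a1 were Heg1 (0.96), Tead1 (0.95), the protocadherins Pcdhga11 and Pcdhgb5 (0.95 each) and Ndnf (0.95). These correlations describe 18 libraries that share ligand groups and depth, and are given without a test.

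Over the other 29 tested members, the median Pearson r was 0.89 for Col1a1, 0.92 for Acta2, 0.91 for Fn1 and 0.87 for Cyr61. The most similar member was Col1a2 for Col1a1 (0.95), Cald1 for Acta2 (0.98), Sparc for Fn1 (0.98) and Timp3 for Cyr61 (0.94). Lox was the least similar to each of the 4, with r of 0.04, 0.07, 0.04 and 0.00.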
